A study of Homo sapiens with 9 samples.

Results

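The hairpins hsa-mir-221 and hsa-mir-222 are neighbours on the X chromosome, and their 2 rows were taken by name from a table of 1485 miRNA hairpins counted in small RNA libraries of human cells. The libraries came from HEK293E, a subline of HEK293 embryonic kidney cells, and from K562, a leukaemia line with erythroid features. In HEK293E the controls were 4 libraries, replicates 1 and 2 of cells given siGFP and replicates 1 and 2 of cells given siControl. The depleted cells were 3 libraries, replicates 1 and 2 of siERH-3 and replicate 2 of siERH-5, both siRNAs against ERH, a small nuclear protein. HEK293E cells received siRNA by lipid transfection on days 0 and 3 and were harvested on day 5. K562 gave 1 siGFP and 1 siERH-5 library, from cells electroporated with siRNA and harvested 4 days later. The labels name no genetic change in either line, and the target mRNA of the siRNAs was not measured here. They also do not say whether replicates were separate cultures, so p-values measure the spread between these libraries, which may be technical.

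miR-221 and miR-222 are cut from stem-loop hairpins of a shared primary transcript. DROSHA with DGCR8 releases the hairpins in the nucleus and DICER1 frees the mature strand, which guides an Argonaute protein to mRNAs that match its seed. Both are known for repressing KIT, the receptor of stem cell factor, and CDKN1B, which encodes the cell cycle inhibitor p27. Their decline during erythroid differentiation and their high level in many tumours have been described before. ERH is known to bind DGCR8 and to help the processing of some hairpins that sit beside a better substrate, which is why the ratio of neighbouring hairpins is of interest here.

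The mature sequences are shown because the shared seed is what makes the members a family. They are written 5′ to 3′ as RefSeq gives them on GRCh38.p14, with bases 2 to 8, the seed, in capitals.
hsa-miR-221-3p: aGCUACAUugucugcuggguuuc
hsa-miR-222-3p: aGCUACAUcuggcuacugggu
hsa-miR-222-5p: cUCAGUAGccaguguagauccu
The 3p strands of the members shared their first 8 bases. Over the 21 positions that could be compared without gaps, 11 were equal. Of 2545 mature human miRNAs in the RefSeq table, 2 had the seed GCUACAU, and they were these 3p strands, so no other hairpin formed a seed family with them. The 5p strand of hsa-mir-222 carries another seed. The deposited counts are per hairpin, so reads of the 3p and 5p strands were not separated.

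The hairpins are shown whole because they are the unit that was counted, with the 3p strand in capitals.
MIR221: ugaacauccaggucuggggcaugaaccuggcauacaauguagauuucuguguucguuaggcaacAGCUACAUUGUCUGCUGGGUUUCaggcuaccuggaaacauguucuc
MIR222: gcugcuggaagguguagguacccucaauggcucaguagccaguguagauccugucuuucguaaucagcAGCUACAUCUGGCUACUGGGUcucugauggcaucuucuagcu
Both lie on the minus strand of GRCh38, MIR221 at chrX:45746157-45746266 and MIR222 at chrX:45747015-45747124. Each is 110 bases long. Their starts are 858 bases apart and 748 bases separate them. In GENCODE 29 both lie in an intron of the longer transcript of the long non-coding RNA MIR222HG (chrX:45745211-45770274, minus strand). Both lie outside its shorter transcript (chrX:45768380-45770269). No other hairpin of the count table lay within 10 kb. The predicted folding energy was -46.5 kcal/mol for hsa-mir-221, with 76.4% of its bases paired, and -53.8 kcal/mol for hsa-mir-222, with 69.1% paired. Of the 772 tested hairpins that could be folded, 522 were more stable per base than hsa-mir-221 and 343 more stable than hsa-mir-222. GC content was 47.3% for hsa-mir-221 and 50.9% for hsa-mir-222, beside a median of 51.1%.

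Sites that match the shared seed are shown for the mRNAs named as targets, since they connect the members to KIT and CDKN1B. The motif ATGTAGC, the reverse complement of the seed, was searched on the mRNA strand only. Capitals mark the match, and each window ends with the base after it.
KIT, chr4:54739573-54739594: tagtttggattcttATGTAGCa
KIT, chr4:54740502-54740523: ttgtaaatattgaaATGTAGCa
CDKN1B, chr12:12721214-12721235: tctaaaagcgttggATGTAGCa
CDKN1B, chr12:12721287-12721308: agtttttaccttttATGTAGCa
Both genes lie on the plus strand of GRCh38, and all 4 matches were in annotated 3′ untranslated regions and were followed by an A. The KIT matches began at bases 1030 and 1959 of a region of 2158 bases, and the CDKN1B matches at bases 201 and 274 of a region of 1344 bases. At least 1 match was found in 1528 of 19113 3′ untranslated regions (7.99%). Among regions within 20% of the same length the share was 9.29% for KIT (2432 regions) and 6.21% for CDKN1B (2462 regions). A match is a description of the sequence. Neither mRNA was measured in these libraries.

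Total counts ran from 2609929 to 3320017 per library. The erythroid hairpins hsa-mir-144, hsa-mir-451a, hsa-mir-486-1 and hsa-mir-486-2 were higher in both K562 libraries than in every HEK293E library, 4 of 4, with a summed level on library totals of 70783 CPM (siGFP) and 65090 CPM (siERH-5) against 1849 to 3064 CPM in HEK293E controls and 1834 to 1998 CPM in HEK293E siERH. The hsa-mir-486 copies had nearly equal counts, 51998 and 51927 in K562 siGFP. They may share reads, so they are not independent and the sum may hold such reads more than once. Of 4 white blood cell hairpins, hsa-mir-142 and hsa-mir-223 were higher in K562 than in every HEK293E library, while hsa-mir-150 and hsa-mir-155 were not. On library totals the list summed to 105 to 215 CPM in HEK293E controls, 203 to 445 CPM in HEK293E siERH, 79115 CPM in K562 siGFP and 79181 CPM in K562 siERH-5. hsa-mir-155 was listed at 0 counts in K562 siGFP. Within HEK293E, hsa-mir-142 was higher in siERH (log2 fold change 0.92, adjusted p = 0.0489 by edgeR), hsa-mir-150 and hsa-mir-155 did not pass the test, and hsa-mir-223 was under the filter on low counts. Of the erythroid list, the hsa-mir-486 copies were lower (-0.55 each, adjusted p = 0.0336 and 0.0338 by edgeR) and the other 2 did not pass. The part of these shifts in the members' values was not tested.

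The members were among the most abundant hairpins of HEK293E. By raw count hsa-mir-221 ranked 9 to 23 and hsa-mir-222 ranked 5 to 17 among all hairpins, and together they held 2.71% to 4.52% of a library's counts. Levels are given below as CPM, counts per 1000000 after TMM scaling, which sets libraries on a common scale by assuming that most hairpins do not differ. In siGFP, hsa-mir-221 stood at 12996 CPM in replicate 1 and 22568 CPM in replicate 2, and in siControl at 13987 CPM and 21284 CPM. In siERH-3 it stood at 11637 CPM in replicate 1 and 17311 CPM in replicate 2, and in the siERH-5 library, of replicate 2, at 13399 CPM. The ranges of control and siERH overlapped, since the controls of replicate 1 were low. Within each replicate every siERH library was below both controls under TMM, as for 24.1% of the 773 hairpins tested.

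hsa-mir-222 showed the same order of libraries within each replicate, at a slightly higher level. It stood at 15107 CPM in siGFP replicate 1, 27114 CPM in siGFP replicate 2, 15326 CPM in siControl replicate 1 and 24418 CPM in siControl replicate 2. In siERH-3 it stood at 13160 CPM in replicate 1 and 20632 CPM in replicate 2, and in siERH-5 at 16407 CPM. Again the groups overlapped across replicates and, under TMM, did not overlap within them, an order that 24.1% of the hairpins tested also showed. On the authors' scaling to library totals (RPM), siERH-3 replicate 2 lay between its controls for both members.

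**Figure D1:**
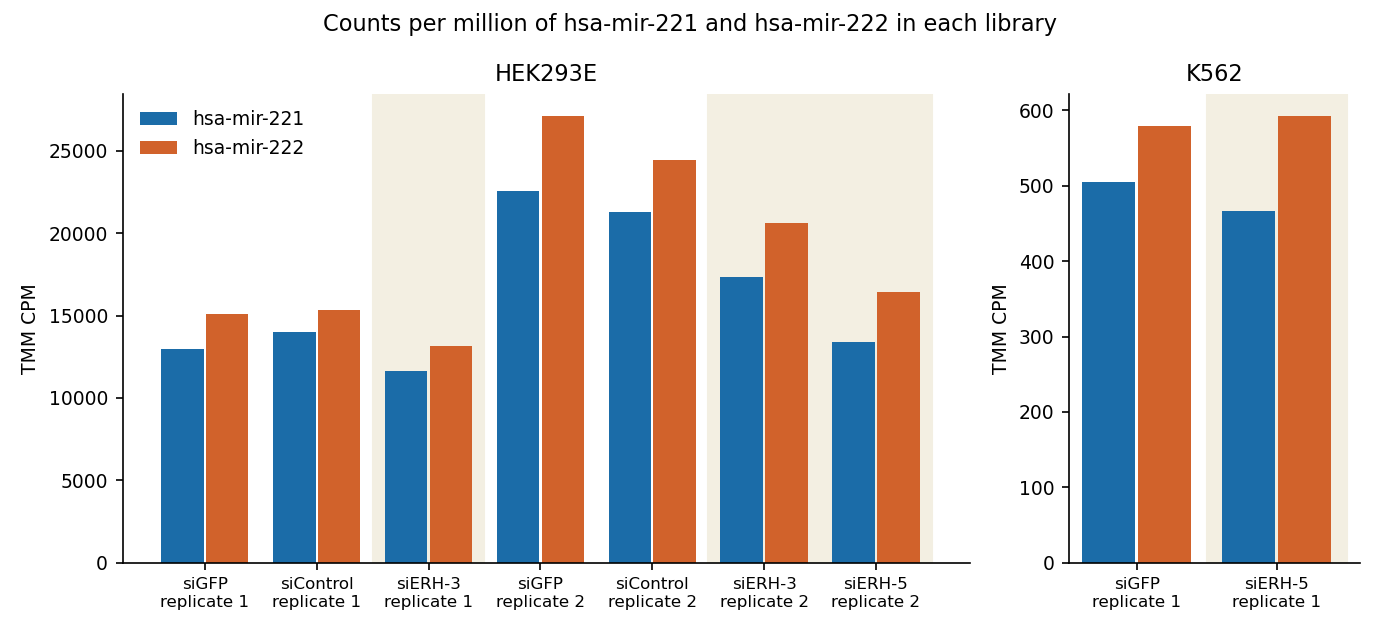
TMM CPM (y axis) of hsa-mir-221 (blue) and hsa-mir-222 (orange) in each library (x axis), with siERH libraries on a shaded ground; each bar is 1 library, and the 2 cell lines were scaled apart and have separate axes. Replicate 2 of HEK293E stands above replicate 1 in the controls, and each siERH library is below both controls of its own replicate, from 11637 CPM for hsa-mir-221 in siERH-3 replicate 1 upward. The latter order held for 24.1% of the hairpins tested.

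Neither member passed the test of siERH against control when the replicate number was left out of the model, and both were lower when it was included. hsa-mir-221 averaged 17709 ± 4914 CPM in controls (SD, n = 4) and 14115 ± 2904 CPM in siERH (SD, n = 3). hsa-mir-222 averaged 20491 ± 6190 CPM and 16733 ± 3747 CPM. By the quasi-likelihood test of edgeR, adjusted over 773 hairpins by the Benjamini-Hochberg method, the log2 fold change of hsa-mir-221 was -0.33 ± 0.23 (SE, adjusted p = 0.285) and that of hsa-mir-222 was -0.29 ± 0.24 (adjusted p = 0.367). The size moved when single libraries were left out. Without siERH-3 replicate 1 the changes were -0.17 and -0.11, without siGFP replicate 2 they were -0.20 and -0.14, and without siERH-3 replicate 2 they were -0.50 and -0.47. Leaving out a library also changes the balance of replicates between the groups. With the replicate number in the model, the values were -0.45 and -0.41 without siERH-3 replicate 1. They were -0.35 and -0.31 without siGFP replicate 2, and -0.45 and -0.42 without siERH-3 replicate 2. A hairpin was called at an adjusted p under 0.05, and 40.0% of the hairpins tested were called in either direction, 125 lower and 184 higher. That split was 67 lower and 212 higher on library totals and 154 lower and 121 higher after a trend on GC content was removed. These bulk libraries give levels relative to other hairpins, so neither the amount of RNA per cell nor the share of cells that changed was measured.

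With the replicate number as a block, hsa-mir-221 fell by 0.39 ± 0.13 on the log2 scale (adjusted p = 0.0200) and hsa-mir-222 fell by 0.37 ± 0.12 (adjusted p = 0.0227) in edgeR's quasi-likelihood test. These are 1.31-fold and 1.29-fold lower levels. The labels give HEK293E replicates 1 and 2 as separate experimental groups, and the block compares siERH with the controls of the same group. In that fit 20.6% of hairpins tested were called lower (159 of 773). That count was 87 on library totals, 94 without siERH-3 replicate 1, 102 with siGFP as the only control and 96 of the 419 hairpins with a mean of 100 counts. Among all 773, 192 hairpins had a more negative change than hsa-mir-221 in the blocked fit. Every siERH library was below both same-replicate controls for both members, 3 of 3, which 24.1% of the tested hairpins also showed. The blocked calls were lost on library totals (-0.18, adjusted p = 0.151, and -0.16, adjusted p = 0.207, by edgeR). They were lost as well without siGFP replicate 2 (adjusted p = 0.0849 for hsa-mir-221 and 0.104 for hsa-mir-222, by edgeR) and without the siERH-5 library (0.113 and 0.124). Set on siControl against siGFP, where neither siRNA targets ERH, the same blocked model called 61 lower and 72 higher of 730 hairpins. The members were not among them.

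**Figure D2:**
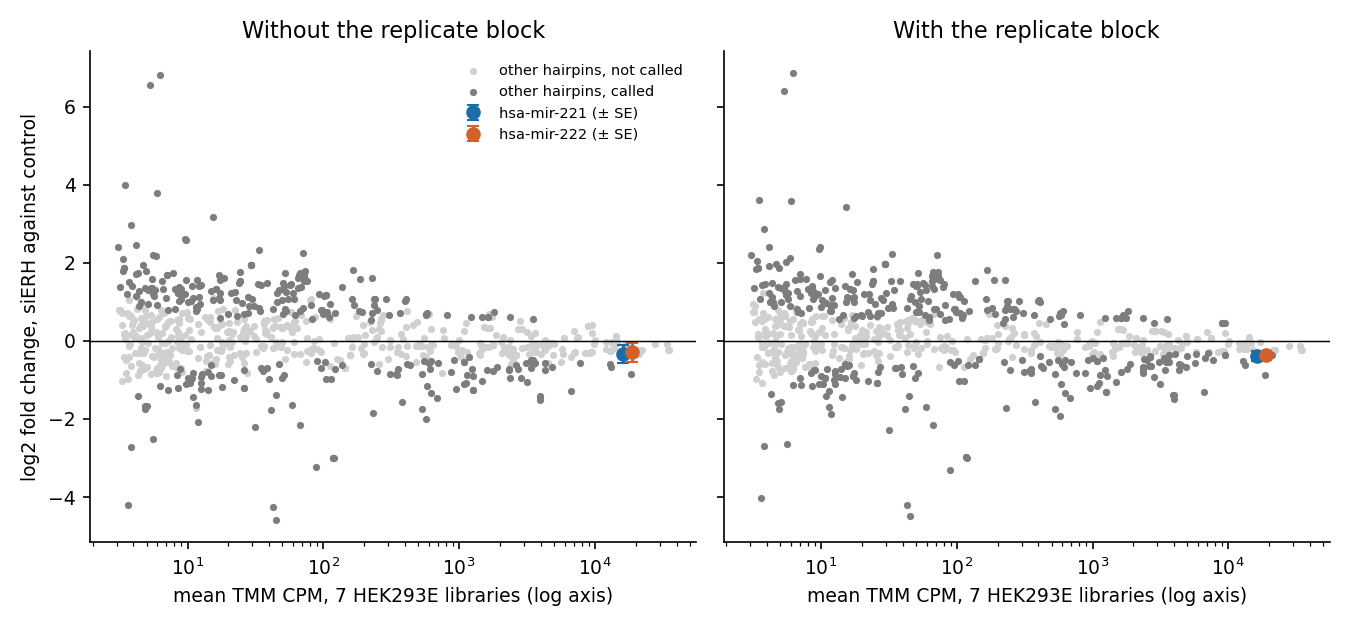
Log2 fold change of siERH against control (y axis) against mean TMM CPM over 7 HEK293E libraries (x axis, log scale) for 773 hairpins, without and with the replicate number as a block; light points were not called, dark points were, and bars on the members are SE. The members sit at the high end of abundance, at -0.33 and -0.29 without the block and at -0.39 and -0.37 with it, where their bars are narrower.

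The scaling of libraries moved the size of the change and not its sign. On library totals the median of all tested hairpins was 0.19 in place of -0.01, and the unblocked changes were -0.12 for hsa-mir-221 and -0.09 for hsa-mir-222. Relative to that median they were -0.31 and -0.28, against -0.32 and -0.28 under TMM. In RPM, the authors' scaling to library totals, 2 of 3 siERH libraries were below both controls of their replicate for each member. The exception was siERH-3 replicate 2, where hsa-mir-221 stood at 18271 RPM between controls at 18251 and 20504 RPM.

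The siERH-5 library was the farthest below its controls. As a log2 ratio to the mean CPM of both controls of replicate 2, hsa-mir-221 was -0.71 in siERH-5, -0.34 in siERH-3 replicate 2 and, against its own controls, -0.21 in siERH-3 replicate 1. For hsa-mir-222 these differences were -0.65, -0.32 and -0.21. Replicate 2 alone, 2 libraries against 2, gave -0.47 (adjusted p = 0.00380) for hsa-mir-221 and -0.43 (adjusted p = 0.00509) for hsa-mir-222 in edgeR's test, where 12.9% of hairpins were called lower. Each of these libraries had a different siRNA, so p there measures the spread between siRNAs within the same experimental group. siERH-3 against the 4 controls gave -0.28 ± 0.29 (adjusted p = 0.494) and -0.27 ± 0.31 (adjusted p = 0.544) in edgeR's test, with 30.6% of hairpins called in either direction. Without siERH-3 replicate 1 that comparison gave 0.00 for hsa-mir-221 and 0.04 for hsa-mir-222. It then set siERH-3 replicate 2 alone against controls of both replicates, and those of replicate 1 were lower. Against the controls of its own replicate that library was at -0.34 and -0.32, as given above. siERH-5 has no second HEK293E library, so the siRNA and the library cannot be told apart.

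Between the control siRNAs the members did not pass the test. siControl against siGFP gave -0.01 ± 0.36 (adjusted p = 0.997) for hsa-mir-221 and -0.08 ± 0.38 (adjusted p = 0.959) for hsa-mir-222 in edgeR's test. Here 0.0% of 730 hairpins were called by edgeR, with 24 at an unadjusted p under 0.05, and DESeq2 called 2 lower and 2 higher. With the replicate block edgeR called 61 lower and 72 higher, and the members still missed the threshold (0.00 ± 0.11, adjusted p = 0.985, and -0.07 ± 0.11, adjusted p = 0.687).

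The spread within control and siERH followed the replicate number. hsa-mir-221 averaged 12873 ± 1180 CPM in replicate 1 (SD, n = 3) and 18640 ± 4149 CPM in replicate 2 (SD, n = 4), and hsa-mir-222 averaged 14531 ± 1192 CPM and 22143 ± 4657 CPM. With the siRNA as a term, replicate 2 was 0.66 ± 0.11 higher for hsa-mir-221 (adjusted p = 0.00536) and 0.72 ± 0.11 higher for hsa-mir-222 (adjusted p = 0.00327) in edgeR's test, a comparison chosen after these values were seen. In it 13.1% of hairpins were called higher. In RPM every replicate 2 library was above every replicate 1 library for both members, as for 6.34% of hairpins. Under TMM that order held for hsa-mir-222 only. For hsa-mir-221 the siERH-5 library of replicate 2 (13399 CPM) lay below siControl replicate 1 (13987 CPM). hsa-mir-221 missed the threshold without siGFP or siControl of replicate 1 and without siGFP or siControl of replicate 2, at differences of 0.58 to 0.68 and adjusted p from 0.0512 to 0.207 by edgeR. hsa-mir-222 missed it without siGFP replicate 1 and without siControl of either replicate, at differences of 0.66 to 0.75 and adjusted p from 0.129 to 0.196. The size of the difference thus stayed close to that over all libraries. Calls over the whole table were lost with theirs: the 101 hairpins called higher fell to 2 without siGFP replicate 2 and to 0 without each of the other 3 libraries. What differed between the experimental groups was not tested.

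Within a library the members kept a narrow ratio. The log2 ratio of hsa-mir-221 to hsa-mir-222 counts, which does not depend on the scaling of libraries, was -0.22 in siGFP replicate 1, -0.13 in siControl replicate 1, -0.26 in siGFP replicate 2 and -0.20 in siControl replicate 2. It was -0.18 in siERH-3 replicate 1, -0.25 in siERH-3 replicate 2 and -0.29 in siERH-5. hsa-mir-222 was the higher member in every library, and the lowest ratio was that of siERH-5. Expressed as a share of the pair's counts, hsa-mir-221 made up 44.95% in siERH-5 (Wilson 95% interval 44.7% to 45.3%) and 47.7% in siControl replicate 1 (47.4% to 48.1%), the extremes in HEK293E. Such intervals cover counting error only.

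The mean log2 ratio was -0.20 ± 0.06 in controls (SD, n = 4) and -0.24 ± 0.06 in siERH (SD, n = 3). The difference of -0.04, a 1.03-fold lower ratio, was within the spread between libraries (2-sided exact permutation test over 35 splits, p = 0.4, where the smallest possible p is 0.0286). Centred on the replicate number the difference was -0.03 (p = 0.5, exact permutation test over 18 splits within replicates, where the smallest possible p is 0.0556). The control siRNAs differed from each other by more than this, siControl minus siGFP being 0.09 in replicate 1 and 0.07 in replicate 2. Against siGFP alone the siERH difference was 5.69e-05 and against siControl alone it was -0.08, so its sign rested on siControl.

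**Figure D3:**
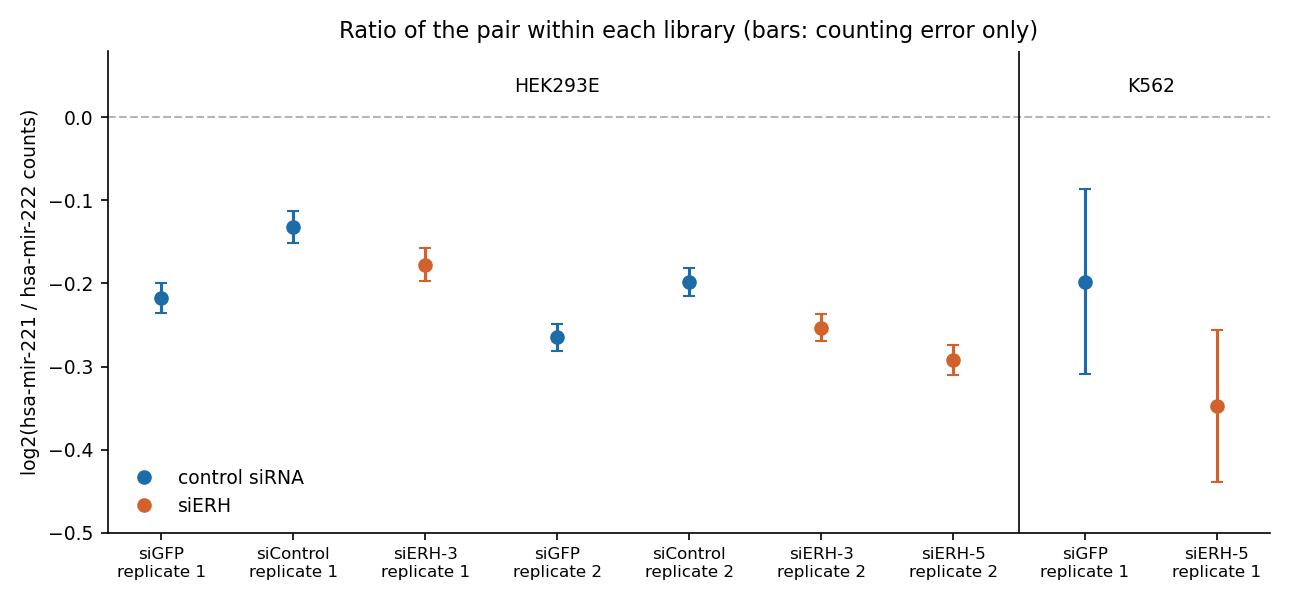
Log2 ratio of hsa-mir-221 to hsa-mir-222 counts (y axis) in each library (x axis), with 95% intervals for counting error; blue points are control siRNAs and orange points siERH. HEK293E libraries range from -0.29 to -0.13 with control and siERH points intermixed, and the K562 intervals are wider because the members' counts were lower there.

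Other neighbouring hairpins give a measure of how steady this ratio was. Pairs of adjacent hairpins on the same strand within 10 kb, each averaging 100 counts or more in HEK293E, numbered 49. The ratio of hsa-mir-221 to hsa-mir-222 had the lowest SD over the 4 controls of all 49 pairs, 0.06 on the log2 scale beside a median of 0.26. Of the other pairs, 44 had a larger difference between siERH and control than the members, and the median size of the difference was 0.39. In the exact permutation test 16 of 49 pairs (32.7%) reached the smallest possible p of 0.0286, unadjusted, and the members' pair did not. Both members are also among the most counted hairpins, which lowers counting error in their ratio. The SE of the log2 ratio from counting alone was 0.0083 to 0.0100 in the 4 controls. The part of depth in the low SD was not tested.

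**Figure D4:**
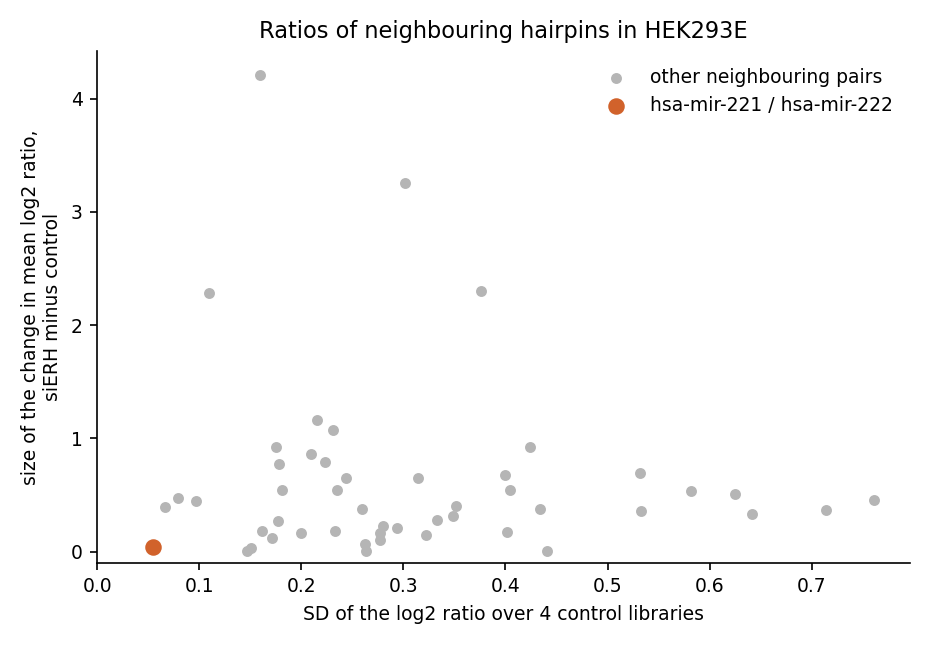
Size of the difference in mean log2 ratio between siERH and control (y axis) against the SD of the ratio over the 4 control libraries (x axis) for 49 pairs of neighbouring hairpins in HEK293E. The members' pair, in orange, lies at the lower left, with an SD of 0.06 and a difference of 0.04 in size.

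Across the 7 HEK293E libraries each member was the hairpin most like the other. Likeness was the root mean square difference between profiles of log2(CPM + 1), each centred on its own mean, compared only among hairpins that averaged 100 counts or more. The members differed by 0.05 from each other, while the median of the other 417 hairpins from the members' mean profile was 0.49. Next came hsa-mir-18a of chromosome 13 at 0.120, hsa-mir-301b of chromosome 22 at 0.120 and hsa-mir-545 of chromosome X at 0.121. hsa-mir-29b-1 of chromosome 7 and hsa-mir-29b-2 of chromosome 1, copies whose mature 3p strand is the same and whose counts are therefore not independent, followed at 0.140. With the replicate block, hsa-mir-18a fell by 0.37 (adjusted p = 0.0229) and the hsa-mir-29b copies by 0.36 (adjusted p = 0.0255 for each), by edgeR. hsa-mir-301b at -0.33 (adjusted p = 0.0981) and hsa-mir-545 at -0.24 (adjusted p = 0.203) did not pass edgeR's test. None of these 5 passed without the block. The likeness is a description over 7 libraries that share the replicate structure.

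**Figure D5:**
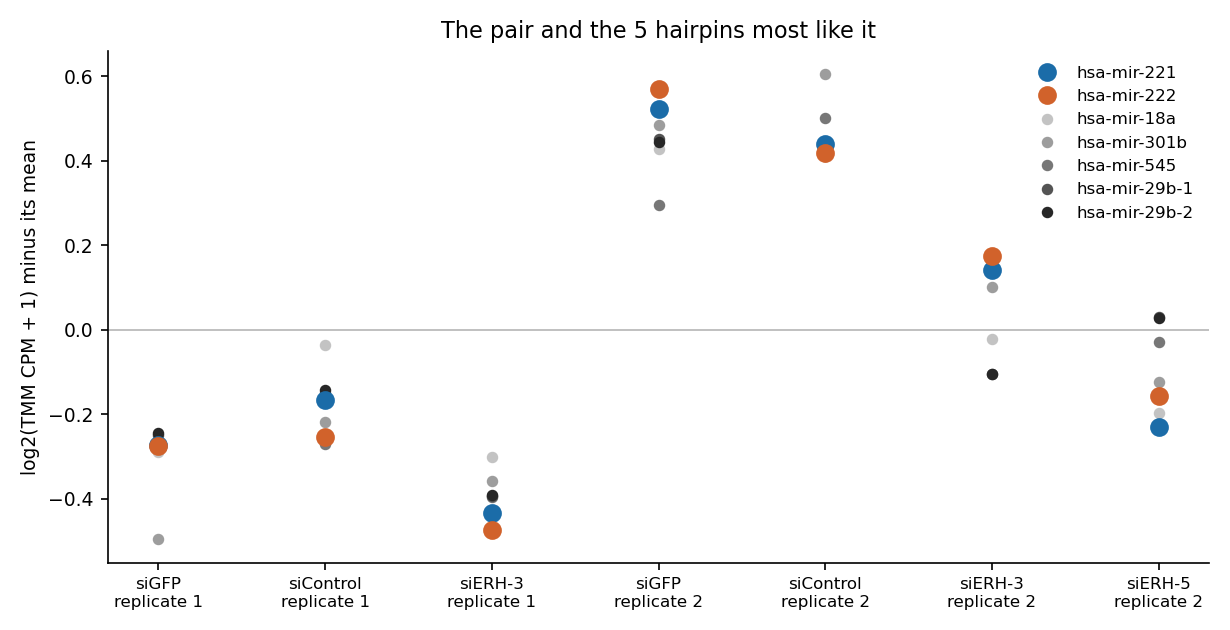
Log2(TMM CPM + 1) minus its mean over the 7 HEK293E libraries (y axis) in each library (x axis) for hsa-mir-221, hsa-mir-222 and the 5 hairpins whose profiles were nearest to theirs. Points of all 7 hairpins lie below 0 in replicate 1 and above 0 in the replicate 2 controls.

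Other hairpins whose mature strands have been reported to bind the same target mRNAs did not all move with the members. Of 5 hairpins reported for KIT, 4 were tested, 2 were lower in siERH and none was higher, with a median log2 fold change of -0.40 beside -0.01 for all hairpins tested, of which 16.2% were called lower. The lower ones were hsa-mir-193a, from 1586 ± 269 CPM in controls to 849 ± 73 CPM in siERH (-0.90 ± 0.18, adjusted p = 0.00288), and hsa-mir-193b, from 3241 ± 691 to 1969 ± 198 CPM (-0.72 ± 0.19, adjusted p = 0.0125), in edgeR's test with 4 and 3 libraries. The hsa-mir-218 copies were at -0.08 each. Of 7 hairpins reported for CDKN1B, all were tested and none was called by edgeR at the adjusted threshold, with a median of -0.18. With the block, 1 was lower and 2 were higher of 7: hsa-mir-148a at -0.57 (adjusted p = 0.00495 by edgeR), hsa-mir-196a-1 at 0.66 (adjusted p = 0.0213) and hsa-mir-196a-2 at 0.58 (adjusted p = 0.0285). In that fit 20.6% of all hairpins tested were called lower and 28.1% higher, so 3 of 7 is near the background. Copies of hsa-mir-24, hsa-mir-181a, hsa-mir-196a and hsa-mir-218 share mature strands, so reads of each set could not be assigned to 1 copy with certainty.

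Other hairpins of the X chromosome were called in both directions. Of 99 such hairpins in the table, 58 were tested, 13 were called lower and 17 higher, beside 125 (16.2%) and 184 (23.8%) of the 773 hairpins tested in all. Their median was -0.09, beside -0.01. The 6 with the lowest adjusted p began with hsa-mir-502, from 1263 ± 88 CPM in controls to 541 ± 27 CPM in siERH (-1.22 ± 0.15, adjusted p = 0.000169), and hsa-mir-532, from 1895 ± 289 to 935 ± 44 CPM (-1.02 ± 0.17, adjusted p = 0.00107), in edgeR's test with 4 and 3 libraries. Both of these belong to the same X-linked cluster. The other 4, hsa-mir-509-1, hsa-mir-509-2, hsa-mir-509-3 and hsa-mir-888, averaged 4.5, 4.5, 6.0 and 8.5 raw counts in controls and 20, 20, 27.7 and 63.7 in siERH. They passed the filter on low counts only through the siERH libraries, so their calls as higher are given no weight here. Among all 17 called higher, 8 averaged under 10 counts in controls, while none of the 13 called lower averaged under 10 counts in siERH. Some hairpins of this list are copies with equal values, such as hsa-mir-509-1 and hsa-mir-509-2. The calls are therefore not all independent.

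In K562 the members were scarce. K562 siGFP held 1198 counts of hsa-mir-221 and 1374 of hsa-mir-222, ranks 156 and 148, and together 0.0984% of its counts. K562 siERH-5 held 1707 and 2171 counts, ranks 155 and 145, and 0.117% of its counts. With all 9 libraries scaled together by TMM, hsa-mir-221 was 17.7-fold and hsa-mir-222 18.3-fold lower in K562 siGFP than in the mean of both HEK293E siGFP libraries, and 37.6-fold and 38.9-fold lower on library totals. Over the 790 hairpins measured, the median log2 ratio of K562 to HEK293E was -0.21 under TMM and -1.24 on library totals, and 32.2% of hairpins were at least 2-fold lower in K562 under TMM. Against that, 64 hairpins had a lower ratio than hsa-mir-221 and 63 a lower ratio than hsa-mir-222. K562 has 1 library per siRNA, so no difference in or against it has a replicate check, and the lines also differ in transfection method and harvest day.

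siERH-5 in K562 changed the members by less than 2-fold, and the sign rested on the scaling. hsa-mir-221 was 506 CPM in siGFP and 466 CPM in siERH-5, a log2 ratio of -0.12 under TMM, -0.24 with DESeq2's size factors and 0.17 on library totals. hsa-mir-222 was 580 CPM and 593 CPM, a log2 ratio of 0.03 under TMM, -0.09 with DESeq2's size factors and 0.31 on library totals. The median of 646 hairpins measured in K562 was 0.11 under TMM and 0.37 on library totals, so relative to it the members were at -0.23 and -0.08 under TMM and at -0.20 and -0.06 on library totals. Of these hairpins 16.9% differed by more than 2-fold in either direction. In HEK293E replicate 2 the log2 ratio of siERH-5 to siGFP was -0.75 for hsa-mir-221 and -0.72 for hsa-mir-222, beside a median of 0.04.

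The ratio within the pair was lower in the siERH-5 library of both lines. In K562 the log2 ratio of hsa-mir-221 to hsa-mir-222 was -0.20 in siGFP and -0.35 in siERH-5, a difference of -0.15 with a counting 95% interval of -0.29 to -0.00471. hsa-mir-221 made up 46.6% of the pair in siGFP (Wilson 95% interval 44.7% to 48.5%) and 44.0% in siERH-5 (42.5% to 45.6%). In HEK293E replicate 2 the same difference was -0.03, with a counting interval of -0.051 to -0.00325. These intervals leave out the spread between libraries, and siControl differed from siGFP by 0.07 in that replicate. Of 48 neighbouring pairs in K562, the members' pair included, 29 had a larger difference than the members. These were not all the same pairs as the 49 of HEK293E.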

How the data were processed

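Small RNA of 18 to 30 nt was sequenced after 30 spike-in RNAs had been added to 10 µg of total RNA, per the labels' protocols. The submitters' processing notes name cutadapt, Bowtie2, bedtools and hg38, with no versions. The sources used here do not say if PCR copies were removed. The authors deposited raw counts per hairpin, with 2336 blank cells read here as 0, and RPM, which recomputation gave as (count + 1) over the library total plus 1485, per 1000000. Spike-ins were not used here, so changes are relative to other hairpins.

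The members and lists were chosen with earlier results of these data known. Counts were tested with edgeR 4.0.16 (R 4.3.3): TMM, hairpins averaging 10 or more counts, quasi-likelihood test, Benjamini-Hochberg adjustment. Alternatives used DESeq2 1.42.0, limma 3.58.1, other scalings, filters, a loess trend on hairpin GC (span 0.75), the replicate block and leaving out each library. The procedure was also run on simulated data. These held no difference between replicates, so they do not check how the replicate block handles one. Replicate numbers pair the libraries: they coincide with the labels' experimental groups, and deviations of same-numbered libraries correlated at 0.48 to 0.69 over 773 hairpins. The ratio was tested by exact permutation in Python (scipy 1.17.1). K562, with 1 library per siRNA, was not tested, and log2 ratios there used CPM plus a pseudocount of 1. Hairpins were folded with RNAfold 2.7.2, and 1482 of 1485 matched GENCODE 29. Named besides the members were members of each list past the threshold, at most 6 by adjusted p, and the 5 hairpins of most similar profile. hsa-mir-218, hsa-mir-148a and hsa-mir-196a were named after their values were seen.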

Additional observations from a re-analysis of the deposited data

Results flagged for a closer look

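The siERH change of hsa-mir-222 differed in sign between the cell lines under TMM. Each HEK293E siERH library was below both controls of its replicate under TMM (2 of 3 in RPM). The K562 siERH-5 library stood 1.02-fold above K562 siGFP, with a log2 ratio of 0.0319 under TMM. That ratio came from 1374 counts in siGFP and 2171 in siERH-5, and its counting error was not computed. The difference between the lines was not tested. Of the HEK293E hairpins tested, 24.1% also had every siERH library below both controls of its replicate under TMM. K562 has 1 library per siRNA, and the K562 value was -0.09 with DESeq2's size factors. Relative to the median of all hairpins measured in K562 it was -0.08 under TMM, which is the direction seen in HEK293E.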

How the results depend on the processing

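Of the 20 alternatives for siERH against control in HEK293E, 3 brought both members past the threshold. Without a block the values were -0.33 for hsa-mir-221 and -0.29 for hsa-mir-222, and without 1 library they ran from -0.50 to -0.17 and from -0.47 to -0.11. The replicate block gave -0.39 and -0.37, and the block with the GC trend removed gave -0.57 and -0.43. Replicate 2 alone, in which no siRNA was replicated, gave -0.47 and -0.43. The sign was negative for both members under all 20. Hairpins called lower, 125, became 67 on library totals, 65 in limma at a pseudocount of 1 RPM, 63 at 10 RPM, 63 at a mean of 100 counts, 190 with block and GC trend removed, and 76 to 130 without 1 library. Hairpins called higher, 184, became 82 at a mean of 100 counts and 121 with the GC trend removed. In the blocked fit, settings added after seeing the data that ended the call of both members were library totals (-0.18 and -0.16), siGFP as the only control (-0.40 and -0.41), leaving out siGFP replicate 2 (-0.35 and -0.31) and leaving out siERH-5 (-0.27 and -0.25). Without 1 library, blocked values ran from -0.45 to -0.27 for hsa-mir-221 and from -0.42 to -0.25 for hsa-mir-222, which also lost its call without siERH-3 replicate 2 (adjusted p = 0.0501, edgeR). For siERH-3 against control, hsa-mir-221 passed only with block and GC trend removed (-0.44). Without 1 library the members ran from -0.58 to 0.00125 and from -0.62 to 0.0442, the sign turning without siERH-3 replicate 1. That setting compares siERH-3 replicate 2 alone with controls of both replicates. Its 87 hairpins called lower became 48 on library totals, 47 with limma at either pseudocount, 46 at a mean of 100 counts, 142 with the block, 178 with block and GC trend removed, and 19 to 102 without 1 library. Its 145 called higher became 69 at a mean of 100 counts, 90 with the GC trend removed, and 42 to 152 without 1 library. For siControl against siGFP, hsa-mir-221 turned to 0.0036 with the block, and without 1 library the members ran from -0.36 to 0.43 and from -0.47 to 0.38. There 0 hairpins were called by edgeR (24 at an unadjusted p under 0.05), 2 lower and 2 higher by DESeq2 or with no filter, 61 lower and 72 higher with the block, 5 lower and 10 higher with block and GC trend removed, and 0 to 1 higher without 1 library. The ratio within the pair turned sign against siGFP alone (5.69e-05). It missed the threshold in every setting tested (exact permutation p from 0.267 to 1). Only raw counts and deposited RPM, each over all HEK293E libraries without the block, could reach it. The block, with a smallest possible p of 0.0556, and the settings with fewer libraries could not. Replicate 2 against replicate 1, without 1 library, ran from 0.58 to 0.71 for hsa-mir-221 and from 0.65 to 0.76 for hsa-mir-222. In K562, siERH-5 against siGFP gave 0.17 and 0.31 on library totals and -0.24 and -0.0904 with DESeq2's size factors, and K562 siGFP against HEK293E siGFP gave -5.23 and -5.28 on library totals. The causes of these changes were not tested. At 1198 to 2171 counts, the K562 libraries limit the precision of the ratio there.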
